A study of Mus musculus with 6 samples.

Results

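The genes described here code for ribosome assembly factors, the nucleolar proteins that process ribosomal RNA and build it into subunits. They were chosen by name: symbols that start with Utp, Nop, Nol or Rrp followed by a digit, together with Imp3, Imp4, Wdr12, Wdr43, Bop1, Pes1, Ftsj3, Nip7, Bms1 and Dkc1. The rule found 42 of the 23259 gene names in the deposited table and used no measured value. By their known roles 22 act on the small subunit, 13 on the large subunit and 4 are core proteins of small nucleolar ribonucleoproteins (snoRNPs). The other 3, Nol3, Nol4 and Nol8, matched the name pattern and were given none of these roles here. Nol3 is known as an inhibitor of apoptosis.

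Ribosomes are assembled in the nucleolus from a long precursor RNA. Factors of the small subunit processome, many of them named Utp because they bind the U3 snoRNA, fold and cut the precursor toward 18S RNA, while other factors mature the 28S and 5.8S RNAs of the large subunit. Guide RNAs in snoRNPs direct chemical modification of the RNA. The mouse zygote lives on ribosomes stored in the egg and holds compact nucleolus precursor bodies. Transcription of ribosomal RNA resumes around the 2-cell stage.

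The series holds 6 samples of mouse embryos in 3 groups of 2 samples each: wild-type (WT) zygotes, zygotes of the genotype Pabpn1l-null, and WT 2-cell embryos. The oocyte protein PABPN1L binds poly(A) tails and takes part in the decay of maternal mRNA, and the series title names clearance of that mRNA and precocious transcription. Per the labels, each sample was 50 embryos kept for 2 h in 200 μM 4-thiouridine from 26 h after hCG. This uridine analogue enters RNA made during the labelling and, once alkylated, reads as a T-to-C mismatch. All samples carry 1 protocol text, which mentions only zygotes. The sources used here give neither the age of the 2-cell embryos, nor the deleted part of Pabpn1l, nor which parent carried it.

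Each group has 1 column of total reads and 1 of reads with a mismatch (T-to-C reads), so there are no replicates to compare, and each test below compares libraries and not conditions. Depth on named genes was 3001472 reads for WT zygotes, 1270347 for null zygotes and 4020444 for 2-cell embryos, and the 42 genes took 4927, 2066 and 8347 of them. Values below are raw reads in this order, and ratios are scaled for depth with TMM factors. Low counts of null zygotes were clumped: of 969 genes for which WT zygotes predicted 3 to 5 null reads, 54.9% had none, where 2.08% would if reads were independent. For this reason 7 reads were counted as 1 molecule in all intervals and tests, except in edgeR's exact test and in settings that state otherwise. A count of 0 then allows up to 3 molecules, or 21 reads. Intervals are 95% Clopper-Pearson intervals and cover counting error only, since each group has 1 column. Whether the clumps are PCR copies was not tested. Pabpn1l itself had 47, 4 and 14 reads, a null-to-WT ratio of 0.192 with an upper end of 2.24. Of the defining markers, those of oocytes and zygotes summed to 44774, 23974 and 16764 reads and those of 2-cell embryos to 70, 8 and 13974. Markers of sperm (8, 0 and 4 reads), blood (42, 1 and 64) and cumulus cells (115, 27 and 74) were low.

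At the 2-cell stage the assembly factor genes did not move as a block. Transcripts of Nop16, Nol11 and Nop2, at 0 to 6 reads in WT zygotes, and of Utp14b, at 78 reads there, were many times more abundant, while those of Bms1, Utp20, Utp18, Ftsj3 and Rrp8 fell to under 0.25 of the zygote level. Of 40 genes with at least 20 reads over the 3 columns, 8 were higher and 9 lower in 2-cell embryos than in WT zygotes by an exact conditional binomial test, with an adjusted p under 0.05 (Benjamini-Hochberg, over 11262 genes) and a ratio of at least 2-fold. Among all genes tested 16.4% were higher and 16% lower, so the shares of these genes lie near the background. Their median log2 ratio was 0.27, against 0.04 for all genes. With RLE scaling the median of all genes rose to 0.28 and that of these genes to 0.52. In whole embryos, fewer embryos with a transcript and less of it per embryo cannot be told apart.

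**Figure D1:**
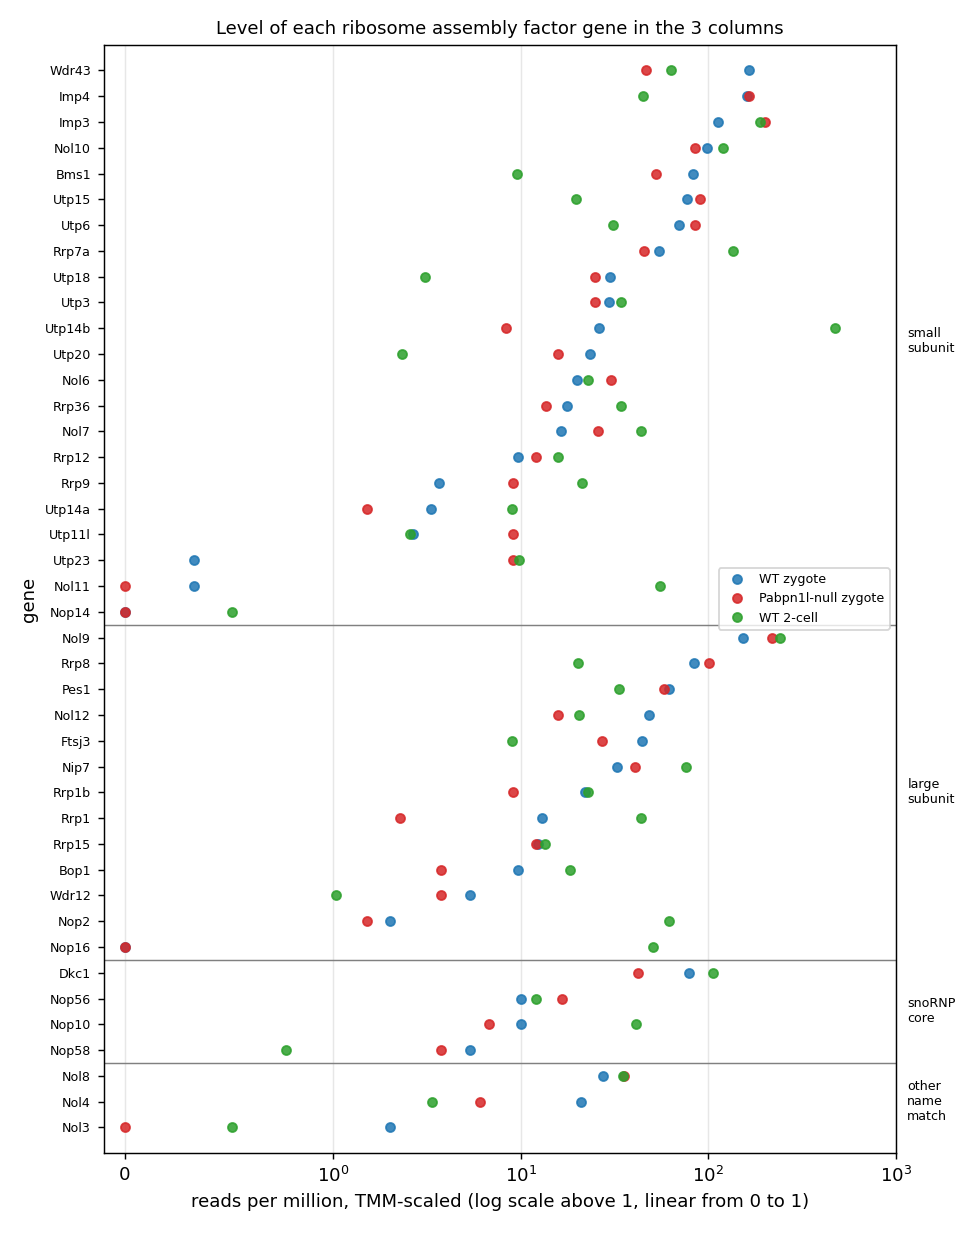
Scaled total reads (RPM, TMM-scaled, horizontal axis, logarithmic above 1 and linear below) of all 42 genes, 1 point per column, grouped by role. The point of Utp14b for 2-cell embryos lies at 476 against 26.1 for WT zygotes, while Nop16 and Nop14 lie at 0 in both zygote columns.

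Among small subunit factors 3 of 21 tested genes were higher at the 2-cell stage, where 16.4% of all genes tested were. Utp14b, on chromosome 1 at 78657825 to 78667601 (GRCm38), is an intronless copy of the X-linked processome gene Utp14a and is known for its need in sperm formation. Utp14b had 78, 11 and 1844 reads, a 2-cell to WT zygote ratio of 18.3 (10.1 to 36.8). Its annotated span starts at the same base as Acsl3, which had 475, 188 and 238 reads, and no source used here says how reads in the shared stretch were divided. Its parent gene Utp14a, on the X chromosome, had 10, 2 and 35 reads and did not pass (2.70, 0.373 to 51.4). Both zygote columns thus held far fewer Utp14b reads than the 2-cell column, and the zygote columns did not differ beyond counting error (0.319, 0.0227 to 1.66).

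Nol11, a subunit of the UTP-A complex that is also needed for transcription of ribosomal RNA, lies on chromosome 11 at 107166651 to 107189381. It had 1, 0 and 214 reads, a ratio of 165 with a lower end of 5.56. Rrp7a, a UTP-C subunit, had 163, 60 and 523 reads (2.48, 1.54 to 4.13). Nol11 was thus close to absent from both zygote columns, whereas Rrp7a was present in all 3 columns.

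Lower were 7 of the 21 small subunit genes, where 16% of all genes tested were. Whether the roles differ from all genes was not tested, and Imp4, Utp15, Utp6 and Wdr43 lost their calls by edgeR's exact test. Bms1, the GTPase of the processome on chromosome 6 at 118383381 to 118419802, had 248, 70 and 37 reads (0.115, 0.0366 to 0.289). Utp18, a WD-repeat protein of UTP-B, had 89, 33 and 12 reads (0.104, 0.00883 to 0.502). Utp20, a large scaffold protein of the processome, had 70, 21 and 9 reads (0.0993, 0.00455 to 0.596). For all 3 genes the null zygote column lay between the other columns in RPM, the reads per scaled column total. Their null-to-WT ratios did not differ from 1 beyond counting error. These were 0.638 (0.282 to 1.31) for Bms1, 0.838 (0.224 to 2.57) for Utp18 and 0.678 (0.120 to 2.63) for Utp20. Utp15 of UTP-A had 230, 119 and 76 reads (0.255, 0.116 to 0.519), and Imp4, which binds the U3 snoRNA with Imp3, had 483, 218 and 174 (0.278, 0.168 to 0.446). Wdr43 had 493, 62 and 244 reads (0.382, 0.247 to 0.581), and Utp6 had 208, 113 and 120 (0.445, 0.231 to 0.834). Utp15, Imp4 and Utp6 lay lower in the 2-cell column than in either zygote column, whereas Wdr43 was lowest in null zygotes.

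The other small subunit genes did not pass both demands. Imp3 had 338, 266 and 729 reads, a ratio of 1.67 (1.17 to 2.39) that passed the test (adjusted p = 0.0109) but not the demand of 2-fold. Nol7 (49, 34 and 169 reads) and the U3 snoRNP protein gene Rrp9 (11, 12 and 82) had ratios of 2.66 (1.11 to 7.31) and 5.76 (1.12 to 80.4) with adjusted p of 0.0654 and 0.103 in the exact test. Utp23 had 1, 12 and 38 reads. Ratios of Rrp36, Rrp12, Nol10, Utp3, Nol6 and Utp11l lay between 0.965 and 1.92. Nop14, a factor of the nuclear 40S precursor, had 0, 0 and 2 reads and was not tested.

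Among large subunit factors 4 of 13 were higher, where 16.4% of all genes tested were. Nop16, a nucleolar protein of 60S precursors on chromosome 13 at 54584191 to 54590097, had 0, 0 and 197 reads and was at least 7.24-fold higher in 2-cell embryos than in WT zygotes. That bound sets the zygote count at the limit of 21 reads and takes the 197 as exact, and the lower end of the interval was 5.51. Nop2, the methyltransferase that makes a 5-methylcytosine in 28S RNA, on chromosome 6 at 125131883 to 125144753, had 6, 2 and 239 reads (30.8, lower end 4.64). Neither gene reached the limit of 21 reads in a zygote column. Rrp1 had 39, 3 and 170 reads (3.37, 1.31 to 10.5), and Nip7, which acts in 60S maturation, had 97, 54 and 296 (2.36, 1.26 to 4.68). Rrp1 was lowest in null zygotes, although that difference from WT zygotes did not pass.

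Lower were 2 of the 13, where 16% of all genes tested were. Rrp8, a methyltransferase of 28S RNA on chromosome 7 at 105731730 to 105737385, had 251, 134 and 78 reads (0.240, 0.111 to 0.480). Ftsj3, a methyltransferase of precursor RNA, had 133, 36 and 35 reads (0.203, 0.0593 to 0.563). Scaled for depth, Rrp8 was at 83.9, 101 and 20.1 RPM and Ftsj3 at 44.5, 27.2 and 9.04 RPM. Both zygote columns thus lay above the 2-cell column for each gene. Nol9, a polynucleotide kinase of ITS2 processing, had 457, 290 and 939 reads, a ratio of 1.59 (1.17 to 2.17) under the 2-fold demand (adjusted p = 0.00743). Nol12 had 145, 21 and 79 reads and an adjusted p of 0.0524 in the exact test (0.421, 0.184 to 0.910). Rrp1b and Rrp15 had ratios of 1.03 and 1.09.

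**Figure D2:**
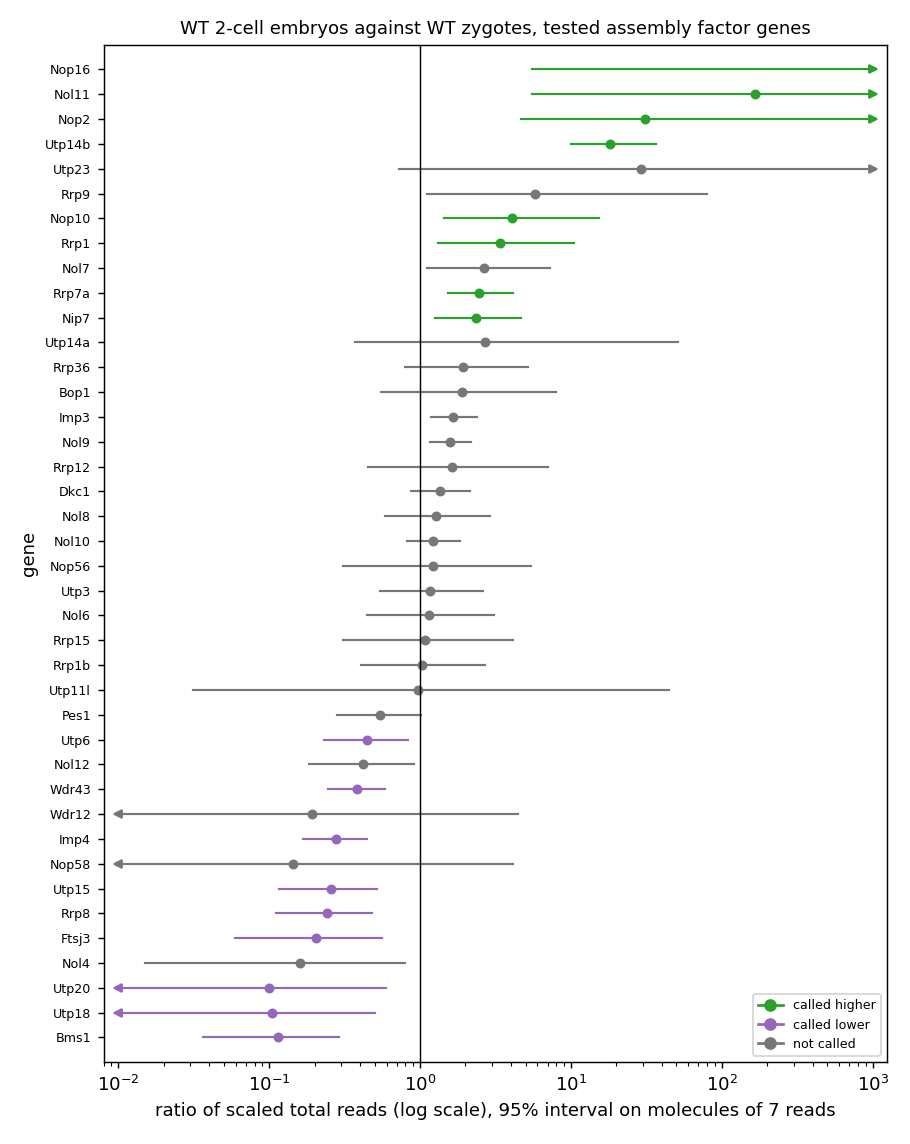
Ratio of scaled total reads in WT 2-cell embryos against WT zygotes (logarithmic axis) for the 40 tested genes, with 95% intervals and arrows where an interval leaves the axis. The 8 genes in green were called higher and 9 in purple lower, and Nop16 has no point because its WT zygote count is 0.

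Of the snoRNP core proteins Nop10 alone passed, where 16.4% of all genes tested were higher. NOP10 and dyskerin (Dkc1) belong to the box H/ACA snoRNPs, which convert uridine to pseudouridine and include telomerase. Nop10, on chromosome 2 at 112261926 to 112262898, had 30, 9 and 159 reads (4.09, 1.43 to 15.4), and Dkc1 had 235, 56 and 412 (1.35, 0.871 to 2.13). Nop56 had 30, 22 and 47 reads and Nop58 had 16, 5 and 3. These are core proteins of the box C/D snoRNPs, which carry the methylation guides. Neither passed (1.21, 0.309 to 5.40, and 0.145, upper end 4.15). Both genes carry snoRNA genes within their spans, and the rows of Snord11, Snord70 and Snord110 hold 0 reads in all 3 columns, with 2, 0 and 10 for Snord57. Of the genes given none of the roles, Nol4 had 63, 8 and 13 reads (adjusted p = 0.0595 in the exact test) and Nol8 had 82, 47 and 136. Nol3 had 6, 0 and 2 and was not tested.

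These calls rest on counting error within single columns. When biological variation was assumed, with edgeR's exact test at a coefficient of variation of 0.4, 6 of the 40 genes were higher and 5 lower, against 15.4% and 10.9% of all genes. Bms1, Utp18, Utp20, Ftsj3, Nol11, Nop16, Nop2 and Utp14b were still called, Imp4, Nip7, Nop10, Rrp1, Rrp7a, Rrp8, Utp15, Utp6 and Wdr43 were not, and Rrp9, Utp23 and Nol4 were called in addition. With every read counted as 1 molecule 12 were higher and 13 lower (30.7% and 28.3% of all genes). Utp6 lost its call with RLE factors, and Rrp1 when genes with low counts were tested too.

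Subunits that work in 1 complex did not always share a direction. The grouping into complexes was made after the values were seen. Among all genes 16.4% were higher and 16% lower, and whether other groups of genes mix directions as often was not tested. By edgeR's exact test Imp4, Wdr43, Utp15, Utp6, Nop10 and Rrp7a lost their calls, while Nol11 and Utp18 kept them. In the MPP10-IMP3-IMP4 complex of the processome the intervals of Imp3 (1.17 to 2.39) and Imp4 (0.168 to 0.446) lie on opposite sides of 1, and Mphosph10 had 30, 28 and 29 reads. In UTP-A, which binds the start of the precursor RNA, Nol11 was higher and Wdr43 and Utp15 were lower. Its other subunits Cirh1a (2, 25 and 0 reads), Heatr1 (17, 51 and 7) and Wdr75 (20, 6 and 7) did not pass. In UTP-B, Utp6 and Utp18 were lower and Wdr3, with 4, 0 and 87 reads, was higher (16.8, lower end 1.68), while Pwp2, Tbl3 and Wdr36 did not pass.

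In the box H/ACA snoRNP all 4 subunits had ratios above 1, and Nop10 and Nhp2 passed. The intervals of Dkc1 (0.871 to 2.13) and Gar1 (lower end 0.187) include 1, and Nop10 lost its call by edgeR's exact test. Nhp2 had 32, 8 and 147 reads (3.55, 1.26 to 12.8) and Gar1 had 4, 0 and 19. In the PeBoW complex, which is needed for 28S maturation, no subunit passed by the exact conditional binomial test at an adjusted or unadjusted p under 0.05. Pes1 had 185, 77 and 130 reads (0.543, 0.283 to 1.02), Bop1 had 29, 5 and 71, and Wdr12 had 16, 5 and 4. For Bop1 and Wdr12 a difference was not detectable at this depth.

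**Figure D3:**
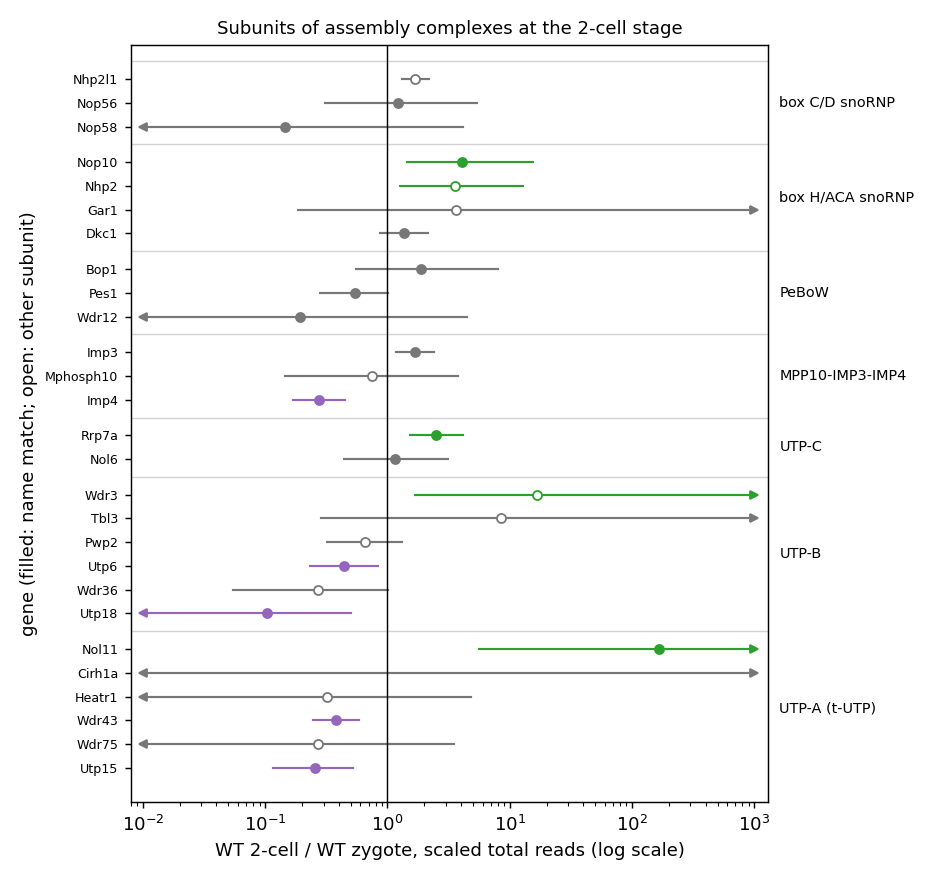
Ratio of scaled total reads in WT 2-cell embryos against WT zygotes (logarithmic axis) with 95% intervals for subunits of 7 assembly complexes, filled points for genes of the name rule and open points for other subunits. Imp3 at 1.67 and Imp4 at 0.278 stand on opposite sides of 1, and Cirh1a, at 0 reads in 2-cell embryos, has no point.

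The upstream sequence of these genes is shown to let a reader see the start regions of transcripts that differ between the columns. Of the 42 genes 34 have a promoter in the RefSeq table (GRCm38.p6), 40 promoters in all. The 250 bases upstream of the annotated start were searched on both strands for 6 motifs chosen after the values were seen. These were the E-box CACGTG, which MYC binds, the GC box GGGCGG, the CCAAT box, the ETS factor core CCGGAAG, the palindromic NRF1 site and the TATA box TATAAA. No motif holds another. Printed are the genes called at the 2-cell stage that have 1 promoter in the table with its 250 bases in no annotated gene, at most 4 higher (Nop2, Nop10, Rrp1 and Rrp7a) and 2 lower, of which Utp20 alone met the rule. Capitals mark the motifs.
Nop2, chr6:125131633-125131882, plus strand: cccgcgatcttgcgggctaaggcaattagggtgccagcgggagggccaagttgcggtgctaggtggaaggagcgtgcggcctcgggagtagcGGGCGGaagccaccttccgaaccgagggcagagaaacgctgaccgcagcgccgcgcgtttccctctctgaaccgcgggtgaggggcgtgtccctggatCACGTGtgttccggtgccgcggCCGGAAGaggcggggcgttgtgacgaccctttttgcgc
Nop10, chr2:112261676-112261925, plus strand: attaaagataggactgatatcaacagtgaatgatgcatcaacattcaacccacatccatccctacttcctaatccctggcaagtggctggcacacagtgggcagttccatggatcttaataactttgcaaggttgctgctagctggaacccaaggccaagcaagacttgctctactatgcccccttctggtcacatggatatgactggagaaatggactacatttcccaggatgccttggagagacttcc
Rrp1, chr10:78413044-78413293, minus strand: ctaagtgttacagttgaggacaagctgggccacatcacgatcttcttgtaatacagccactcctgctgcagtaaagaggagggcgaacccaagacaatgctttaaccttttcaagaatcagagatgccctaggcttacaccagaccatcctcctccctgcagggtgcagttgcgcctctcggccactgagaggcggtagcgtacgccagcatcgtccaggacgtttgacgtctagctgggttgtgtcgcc
Rrp7a, chr15:83122802-83123051, minus strand: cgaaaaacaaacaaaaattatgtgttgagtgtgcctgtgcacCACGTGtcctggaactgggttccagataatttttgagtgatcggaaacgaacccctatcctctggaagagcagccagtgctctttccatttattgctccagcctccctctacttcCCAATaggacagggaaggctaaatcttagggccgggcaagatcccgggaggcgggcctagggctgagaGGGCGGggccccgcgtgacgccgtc
Utp20, chr10:88826815-88827064, minus strand: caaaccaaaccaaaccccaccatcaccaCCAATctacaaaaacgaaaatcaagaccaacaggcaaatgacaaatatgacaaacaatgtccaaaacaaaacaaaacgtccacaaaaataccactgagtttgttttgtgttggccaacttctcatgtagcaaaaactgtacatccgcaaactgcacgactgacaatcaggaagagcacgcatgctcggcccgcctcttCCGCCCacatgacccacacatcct

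In Nop2 an E-box begins 60 bases and an ETS core 38 bases upstream of the start. In Rrp7a an E-box begins 208 bases and a GC box 25 bases upstream, and Utp20 holds CCAAT and a GC box but no E-box. None of the 6 motifs occurs in the 250 bases of Nop10 or Rrp1. Over all 40 promoters, CACGTG was found in 15.0% (6), CCGGAAG in 22.5% (9) and GGGCGG in 62.5% (25). In all 32851 promoters of the table, which include non-coding genes, the shares were 6.02%, 6.91% and 32.7%. CCAAT (32.5% against 33.8%) and TATAAA (12.5% against 12.4%) were at similar shares, and the NRF1 site was found in 0 of 40 against 0.782%. CACGTG stood in 4 of the 8 promoters of genes higher at the 2-cell stage (those of Nol11, Nop2, Rrp7a and Utp14b) and in 2 of the 9 of genes lower (Imp4 and Utp18). Utp6, called lower, has no promoter in the table, so the 9 promoters belong to the other lower genes and are not 1 per gene. GGGCGG stood in 5 of 8 and 6 of 9, CCGGAAG in 2 of 8 and 2 of 9, CCAAT in 2 of 8 and 4 of 9, and TATAAA in 1 of 8 and 0 of 9. A match is a description of these letters and not a bound site.

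Null and WT zygotes differed in 1 of these genes. Wdr43, a UTP-A subunit on chromosome 17 at 71616178 to 71659031, was lower in null zygotes (62 reads against 493, a ratio of 0.284, 0.124 to 0.573, adjusted p = 0.00631). It was the only one of the 40 tested genes that passed in this comparison by the exact conditional binomial test, and 0 were higher, against 0.684% of all genes lower and 0.693% higher. The 40 include Nop16 (0 and 0 reads in WT and null zygotes), Nol11 (1 and 0) and Nop2 (6 and 2). These met the filter through the 2-cell column and could not be called here, and they are also part of the median given below. Wdr43 was also the only gene called in both comparisons, which share the WT zygote column. Under edgeR's exact test with that variation assumed it lost the call and 0 of the 40 passed, where 0.222% of all genes were higher and 0.994% lower.

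The median log2 ratio of the 40 genes in null against WT zygotes was -0.22, and that of all genes -0.15. Imp3 had the largest ratio among genes with at least 100 reads in both zygote columns, 1.78 (1.13 to 2.78), and did not pass (adjusted p = 0.216). Nol9 (1.43, 0.947 to 2.15) and Imp4 (1.02, 0.645 to 1.58) did not pass either. Dkc1 (0.538, 0.215 to 1.19), Bms1 (0.638, 0.282 to 1.31) and Nol12 (0.327, 0.0624 to 1.10) had lower point values with intervals that reach past 1. Of the genes higher at the 2-cell stage, Nop16 and Nol11 were at 0 and Nop2 at 2 reads in null zygotes. At this depth most genes had too few null reads to show a 2-fold difference, as the widths of these intervals show. With every read counted as 1 molecule 2 genes were higher (Utp11l and Utp23) and 6 lower (Nol12, Nol4, Rrp1, Rrp1b, Utp14b and Wdr43), against 9.96% and 13.7% of all genes.

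**Figure D4:**
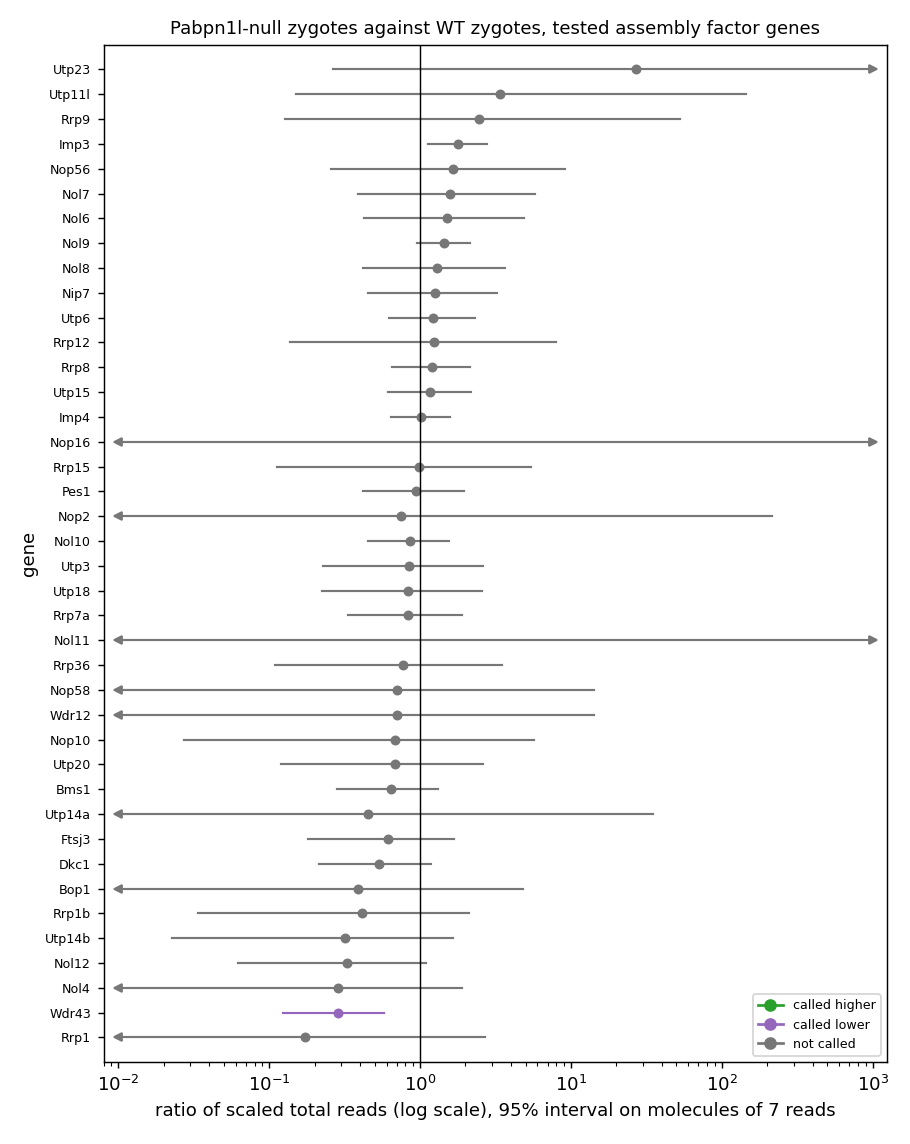
Ratio of scaled total reads in Pabpn1l-null zygotes against WT zygotes (logarithmic axis) for the 40 tested genes, with 95% intervals and arrows where an interval leaves the axis. Wdr43 at 0.284 is the 1 gene called, and most other intervals cross 1.

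Few reads of these genes carried a T-to-C mismatch. Over all 42 genes the share was 2.60% in WT zygotes (128 reads, 1.55% to 4.06%), 2.95% in null zygotes (61 reads, 1.34% to 5.58%) and 2.56% in 2-cell embryos (214 reads, 1.74% to 3.63%). The share of all named genes was 3.03%, 3.86% and 4.54%. In 2-cell embryos the interval of the assembly factor genes thus lies under the share of the whole column. The median over genes with at least 100 reads was 2.95% for 20 of these genes and 2.06% for 5112 of all. Without an unlabelled control, mismatches from sequencing error or sequence differences are part of every share.

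Among genes with at least 100 reads in 2-cell embryos, Nip7 (9.46%, 28 of 296 reads), Utp3 (8.27%, 11 of 133) and Pes1 (5.38%, 7 of 130) had the highest shares and Wdr43 (0.410%, 1 of 244), Rrp36 (0.758%, 1 of 132) and Nop16 (1.02%, 2 of 197) the lowest. The interval of Nip7 runs from 2.64% to 22.5%, and overlaps those of the lowest genes (Wdr43 up to 10.8%). Utp14b, although 18.3-fold more abundant than in WT zygotes, had a share of 1.08% (20 of 1844, 0.212% to 3.21%), with an upper end under the share of the whole column. Over all genes with at least 100 reads in that column the lower quartile was 1.01% and the median 2.06%, both inside this interval. Of the other genes higher at this stage, Nol11 had 10 T-to-C reads of 214 (4.67%), Nop10 7 of 159 (4.40%) and Nop2 4 of 239 (1.67%).

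Among genes with at least 100 reads in WT zygotes, Bms1 had the highest share, 36 of 248 reads (14.5%, 4.99% to 30.4%), and in null zygotes 17 of its 70 reads were T-to-C reads (24.3%). In 2-cell embryos it had 0 of 37. The next highest shares among those genes were Imp3 (2.96%) and Utp6 (2.88%), and the lowest were Dkc1 (0 of 235), Rrp8 (0 of 251) and Nol12 (0 of 145). Among the 7 genes with at least 100 reads in null zygotes, which do not include Bms1, Imp3 (3.38%), Utp15 (3.36%) and Nol9 (1.03%) were highest and Imp4 (0.459%), Rrp8 (0.746%) and Utp6 (0.885%) lowest. A count of 0 allows up to 21 reads, so 0 of 235 does not show that Dkc1 was unlabelled. The authors' deposited table calls Bms1 Positive in both zygote columns, Nop56 in null zygotes (5 of 22 reads) and Utp23 in 2-cell embryos (10 of 38). That is 1, 2 and 1 of 42 genes by column, beside 2.85%, 4.26% and 5.83% of all genes called Positive in the authors' deposited table. All other calls of the 42 genes in the authors' deposited table are Negative.

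**Figure D5:**
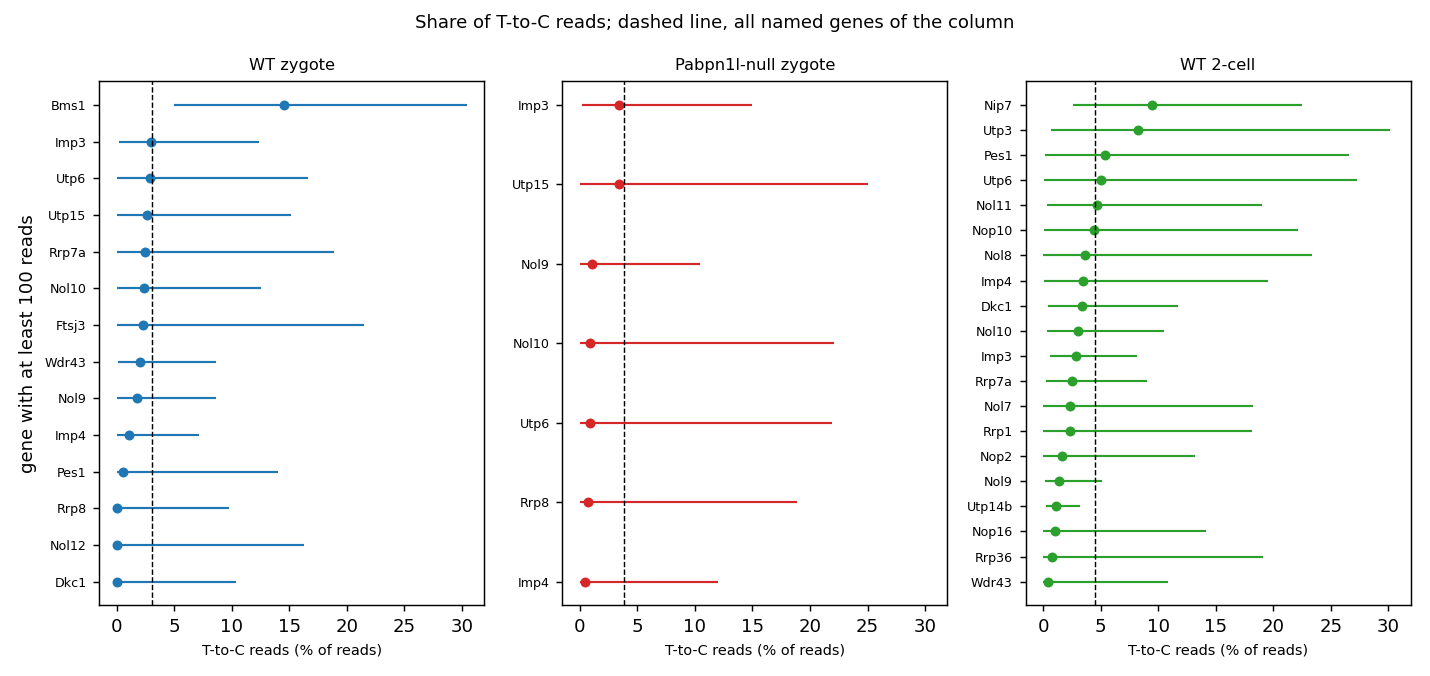
T-to-C reads as a share of all reads (horizontal axis, %) with 95% intervals for genes with at least 100 reads in the column, 14, 7 and 20 genes from left to right, and a dashed line for all named genes. Bms1 in WT zygotes is the 1 gene whose interval lies wholly above the dashed line, and Utp14b in 2-cell embryos the 1 whose interval lies wholly below it.

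In T-to-C reads no gene passed the exact conditional binomial test, and calls by other settings are given beside it. Of 17 genes with at least 10 T-to-C reads over the columns 0 passed by the exact conditional binomial test in null against WT zygotes, with 0 at an unadjusted p under 0.05 and 0 by edgeR's exact test. The background was 0.0457% of genes higher and 0% lower, and 0.0229% and 0% by edgeR. The 17 include Dkc1, Nol11, Utp14b and Utp23, which had 0 T-to-C reads in both zygote columns and could not be called. The others except Bms1 had at most 10 T-to-C reads in either zygote column, so this count of 0 does not show equal labelling. With every read as 1 molecule Pes1 was higher, where 13.5% of all genes were higher and 4.43% lower. In 2-cell embryos against WT zygotes 0 of the 17 passed, where 4.32% of all genes were higher and 1.62% lower, and 1, Bms1, had an unadjusted p under 0.05 (0 against 36 reads, adjusted p = 0.319 in the exact test). The upper end of its ratio was 0.810, and a 2-cell count at the limit of 21 reads would make it at least 2.22-fold lower if the 36 reads are taken as exact. By edgeR's exact test with that variation assumed Dkc1 (0, 0 and 14 T-to-C reads) and Utp14b (0, 0 and 20) were higher and Bms1 lower, 3 in all, where 15.2% and 6.22% of all genes passed. With every read as 1 molecule Dkc1, Nip7, Nol11, Utp14b and Utp23 were higher and Bms1 and Wdr43 lower, against 30.3% and 19% of all genes. The T-to-C share passed for 0 of 22 genes in null zygotes (background 0% higher and 0% lower) and 0 of 28 in 2-cell embryos (1.84% and 0.0579%) by Fisher's exact test, with 0 at an unadjusted p under 0.05 in each. With every read counted as 1 molecule the share was higher for Nol12 and Pes1 in null zygotes (10.2% of all genes higher and 2.05% lower), and higher for Dkc1 and lower for Bms1 in 2-cell embryos (10.8% and 3.81%).

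Other genes of ribosome biogenesis also moved both ways at the 2-cell stage. Of 97 tested genes of a list of 112 (processome and 60S factors, snoRNP and nucleolar proteins, exosome and trimming nucleases) 21 were higher and 10 lower than in WT zygotes, with a median log2 ratio of 0.57. Over all genes 16.4% were higher and 16% lower, with a median of 0.04. By edgeR's exact test with that variation assumed 19 were higher and 3 lower, where 15.4% and 10.9% of all genes passed. C1d, a cofactor of the nuclear exosome, had 3, 0 and 977 reads (251, lower end 23.4). Ddx54, a helicase of the large subunit, was at least 12.9-fold higher (lower end of the interval 10.1), and Isg20l2, an exonuclease of 5.8S maturation, at least 7.90-fold (lower end 6.05). The lowest ratios were those of Riok1, a kinase of late 40S maturation (0.0782, 0.0409 to 0.138), Noc4l (0.145, 0.0339 to 0.448) and Brix1 of the 60S precursor (0.157, 0.0621 to 0.345). Both directions thus also occur among factors outside the name rule.

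Riok1 was also the 1 gene of 60 whose T-to-C share passed, at 1.74% in WT zygotes (16 of 918 reads) and 58.1% in 2-cell embryos (54 of 93). In T-to-C reads 0 of 30 genes passed at the 2-cell stage by the exact conditional binomial test, with 1 at an unadjusted p under 0.05, and 6 higher by edgeR's exact test with that variation assumed, where 15.2% of all genes were higher. In null against WT zygotes 0 of 97 passed in total reads, with 8 at an unadjusted p under 0.05 (1069 of 11262 over all genes) and 1 higher and 1 lower by edgeR's exact test (0.222% and 0.994%). The 97 include Esf1, Mdn1, Gnl3l and Zfp622, which had 0 reads in both zygote columns and could not be called. In T-to-C reads 0 of 30 passed in that comparison, with 0 at an unadjusted p under 0.05 and 0 by edgeR's exact test. Most of these 30 genes also had too few T-to-C reads for a call, so these counts of 0 do not show equal labelling.

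Summed over the 42 genes, total reads of 2-cell embryos gave a ratio of 1.31 (1.19 to 1.44) to WT zygotes. This sum rests on Utp14b, without which it was 1.04 (0.937 to 1.14). The sums by role were 1.34 for the small subunit (1.18 to 1.51), 1.26 for the large subunit (lower end 1.05) and 1.54 for the snoRNP core (1.06 to 2.26). Without the gene with the most reads in its role the small subunit sum fell below 1, to 0.885 (0.774 to 1.01, without Utp14b), and the large subunit sum was 1.11 (0.890 to 1.38, without Nol9). The snoRNP core sum was then 2.12 (1.03 to 4.72, without Dkc1). Null zygotes gave 0.947 (0.824 to 1.09) over all 42 genes. Summed T-to-C reads gave 1.08 (0.421 to 2.54) in null zygotes and 1.29 (0.700 to 2.44) in 2-cell embryos, or 1.80 (0.913 to 3.73) without Bms1. Scaled by all T-to-C reads of the column they gave 0.885 and 0.833, so the direction turned. Neither differed from WT zygotes beyond counting error.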

How the data were processed

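The authors deposited read counts and T-to-C read counts per gene row with 1 column of each per group, beside their Positive or Negative call. The submitters' processing notes name mm10. No source used here names the aligner or counter, says how duplicates were treated, or says whether a column merges the samples of its group. The 30493 rows include 47 with a date for a name, which were left out. Where a name had several rows, that with most reads stands for the gene. Of the 42 genes Nol9 alone had distinct rows. Coordinates and promoters are RefSeq's (GRCm38.p6), and 41 genes matched by symbol and 1, Utp11l, by synonym. Another annotated gene overlaps 19 of the 42 genes, and no source used here says how shared reads were divided. Among the genes called, protein-coding genes overlap Utp14b, Rrp7a, Ftsj3 and Rrp8. For Rrp7a this is Serhl (148, 43 and 226 reads), for Ftsj3 Ddx42 (155, 102 and 213) and for Rrp8 Ilk (23, 11 and 32). Nol11, Rrp1 and Wdr43 overlap only genes that code for no protein.

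Columns were scaled by TMM factors (edgeR 4.0.16) of 0.996, 1.04 and 0.963 in the order used above. Total and T-to-C reads, divided by 7 and rounded, were tested by the exact conditional binomial test and shares by Fisher's exact test (scipy 1.17.1), with at least 20 reads over the columns, 10 T-to-C reads, or 20 reads in both columns for shares. Log2 ratios add 0.5 molecule, scaled to column size. For shares 1 molecule is added at the column's own share. This replaced an unscaled addition, which raised the ratios of shallow columns. Dividing by 7 was chosen after the clumps of the null column were seen.

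The members, lists and tests were chosen with earlier results of these data known. Values are given for genes called, the 3 with the most reads per role, the 3 highest and lowest T-to-C shares among genes with 100 reads, and other genes of the list with the 3 highest and lowest called ratios. Roles of genes are background knowledge. Alternatives were RLE or no factors, other filters, pseudocounts and rows, other molecule sizes, own scaling of T-to-C reads, and edgeR's exact test on undivided reads.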

Additional observations from a re-analysis of the deposited data

How the results depend on the processing

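No paired analysis was possible because the table has 1 column per group, and for the same reason no replicate could be left out. In null against WT zygotes the count of genes called in total reads, 1, rose to 8 with every read as 1 molecule and fell to 0 with edgeR's exact test with that variation assumed. In T-to-C reads of this comparison the count of 0 became 1 (Pes1) and in the T-to-C share 2 with every read as 1 molecule. The median log2 ratio of T-to-C reads was 0.42 with at least 10 T-to-C reads in 2 columns, over 2 genes. For 2-cell embryos against WT zygotes the 17 genes called in total reads became 10 when 50 reads in at least 2 columns were asked for. These were 3 higher and 7 lower of 20 tested, where 773 were higher and 1484 lower of all 5326 genes tested. That filter left 8 of the 17 untested (Nol11, Nop2, Nop10, Nop16, Rrp1, Ftsj3, Utp18 and Utp20), and Nol12 was called lower in addition. With edgeR's exact test the count was 11. It was 25 with every read as 1 molecule (12 higher and 13 lower), and all 17 kept their call there. In T-to-C reads the count of 0 became 7 with every read as 1 molecule, 7 with molecules of 7 reads in the null column alone and 3 with edgeR's exact test. The median log2 ratio of T-to-C reads became -1.56 with at least 10 T-to-C reads in 2 columns, over 2 genes. In the T-to-C share the count of 0 became 2 with every read as 1 molecule and 2 with molecules of 7 reads in the null column alone. The summed total reads gave 1.57 with RLE factors and 1.04 without Utp14b, against 1.31. Sums by role without the gene with the most reads were added after the sums were seen. Summed T-to-C reads scaled by their own column total gave 0.885 and 0.833 in null and 2-cell columns, against 1.08 and 1.29. None of the genes called changed direction under the alternatives in which it was tested. Leaving out Nol3, Nol4 and Nol8, chosen after seeing the data, changed no count of calls. Depth limits the null column most, where 22 of the 42 genes had at least 20 reads, against 31 and 34.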
